A study of Mus musculus with 24 samples.

Results

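Matrix metalloproteases, the ADAM and ADAMTS proteases and their TIMP inhibitors were followed in infarcted mouse heart tissue. Members were all mouse genes with a symbol of Mmp, Adam or Adamts followed by a digit, together with Timp1 to Timp4, each read on its brightest probe. Of 80 such genes in the reference gene table, 55 were measured, that is, well above background on at least 4 of 24 arrays, and these were 55 of the 15875 genes measured in all. They were 16 of 23 Mmp genes, 17 of 34 Adam genes, 18 of 19 Adamts genes and 4 of 4 Timp genes. The 25 genes without a measured level included the collagenases Mmp1a and Mmp1b, the matrilysin Mmp7, the stromelysin Mmp10 and Adamts13, which cleaves von Willebrand factor, and 17 Adam genes.

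The study took total RNA from the area at risk of the anterior heart wall of male C57BL6/J mice after the left anterior descending artery had been closed for 45 min and then reopened. Tissue was taken 24, 48 or 168 h after reopening, from mice given recombinant IGF1 (insulin-like growth factor 1) or vehicle (PBS with BSA), with 4 one-colour Agilent arrays in each of the 6 groups. IGF1 came as a subcutaneous dose of 40 ng/g at reopening, followed by 1 µg/g daily from a micro-osmotic pump for the first 3 days, so the pump had run its term before the 168 h samples. Sham-operated controls appear in the text on the design, but every vehicle label gives 45 min of ischemia, and the labels were followed. No tissue without occlusion was analysed here. The labels do not give the animals' age or name the animal behind an array, so the p-values below rest on the spread among arrays, which may in part be technical. Levels are log2 signals relative to each array's 75th percentile. In such whole-tissue RNA, fewer cells of a type and less RNA per cell cannot be told apart.

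Matrix metalloproteases are zinc enzymes that cut collagens, gelatins, elastin and other matrix proteins, and most are secreted as inactive precursors. ADAM proteases sit in the cell membrane and release the outer parts of cytokines, growth factors and receptors, while ADAMTS proteases are secreted and cut proteoglycans or trim procollagens and microfibril proteins. TIMPs bind the active site of these enzymes and block it. In an infarct these proteases are known for breaking down the old matrix and for shaping the scar that replaces it.

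The largest family cluster lies on chromosome 9, where Mmp13, Mmp12, Mmp1b, Mmp3, Mmp1a, Mmp10, Mmp8, Mmp27, Mmp20 and Mmp7 follow one another as a run of 10 protein-coding genes, of which 5 were measured. Its members did not share a course in this tissue: Mmp3 and Mmp8 fell from 48 to 168 h in both treatment arms, Mmp12 and Mmp27 did so in vehicle hearts, and Mmp13 changed in none of the comparisons. For this reason the sequences ahead of the annotated starts of Mmp3, Mmp8, Mmp12 and Mmp13 are shown beside those of Timp2 and Timp3, inhibitors that rose over the same interval. Each is 120 bases, 5′ to 3′ on the gene's strand, and ends at the base before a RefSeq start (GRCm38.p6). Capitals mark an AP-1 motif, a TATA box or a GC box, searched on both strands with letters given after the sequences. A motif that runs over the start, as the TATA box of Mmp8, or lies after it, as that of Mmp12, is not marked. Mmp27, also in the cluster, is not shown and had none of these motifs from 250 bases before to 50 after its start.
Mmp3, chr9:7445702-7445821, plus strand: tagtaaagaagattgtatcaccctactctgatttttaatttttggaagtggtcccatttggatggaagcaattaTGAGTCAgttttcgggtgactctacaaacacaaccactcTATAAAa
Mmp13, chr9:7272394-7272513, plus strand: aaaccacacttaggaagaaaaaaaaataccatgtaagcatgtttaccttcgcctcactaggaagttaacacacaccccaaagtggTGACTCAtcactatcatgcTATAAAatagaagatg
Mmp12, chr9:7347254-7347373, plus strand: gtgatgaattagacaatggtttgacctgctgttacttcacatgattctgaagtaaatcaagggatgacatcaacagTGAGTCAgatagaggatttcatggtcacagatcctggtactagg
Mmp8, chr9:7558309-7558428, plus strand: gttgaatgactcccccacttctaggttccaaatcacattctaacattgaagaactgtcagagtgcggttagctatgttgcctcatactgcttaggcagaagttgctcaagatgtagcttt
Timp2, chr11:118355412-118355531, minus strand: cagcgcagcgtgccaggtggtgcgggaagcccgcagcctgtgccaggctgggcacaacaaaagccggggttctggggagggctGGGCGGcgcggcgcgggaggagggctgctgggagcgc
Timp3, chr10:86300292-86300411, plus strand: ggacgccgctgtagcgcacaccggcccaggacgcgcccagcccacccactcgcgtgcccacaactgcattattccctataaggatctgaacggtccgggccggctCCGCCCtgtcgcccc

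The AP-1 motif was searched as TGANTCA. The TATA box was searched as TATAAA. The letters GGGCGG stood for the GC box, which on the opposite strand read as in the Timp3 stretch. The AP-1 motif began 46, 35 and 44 bases before the annotated start of Mmp3, Mmp13 and Mmp12, and Mmp12 is shown for the second of its 2 annotated starts. No AP-1 letters stood in the 250 bases ahead of its first start. Of the 55 measured members, 35 had a window of 300 bases in the RefSeq table, running from 250 bases before to 50 after a start. AP-1 letters were present for 4 of these 35 genes, the 3 just named and Adam19, and in 7.81% of all 32851 windows of that length. A TATA box stood in the windows of 6 members and in 13.6% of all windows, and a GC box in those of 21 members and in 35.7% of all windows. These matches are letters in a window, and no binding was measured. A member was counted if any of its windows held the letters, while the background counts single windows. Adam19, Mmp12 and Mmp23 had more than 1 window, so the member counts and the background shares are in unlike units. The windows of Mmp2 and Mmp9 were not used here.

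More of the proteases passed the tests between times than those between treatments. From 48 to 168 h in vehicle hearts 21 of the 55 measured members rose and 13 fell (limma, adjusted p under 0.05), where 25.8% of all genes rose and 27.6% fell. In IGF1 hearts 23 rose and 10 fell, where 23.8% of all genes rose and 25.4% fell. The share of members rising, 38.2% in vehicle and 41.8% in IGF1 hearts, stood above the background, and the share falling, 23.6% and 18.2%, stood below it. The arms share no sample, and 18 members rose in both, which is 85.7% of the vehicle list and 78.3% of the IGF1 list. All 10 members that fell in IGF1 hearts also fell in vehicle hearts, where they made up 76.9% of the falling list. The median size of the change, in either direction, was 0.89 on the log2 scale for the members and 0.36 for all genes in vehicle hearts. In IGF1 hearts it was 0.87 and 0.33. Of the 55, 37 were well above background on all 24 arrays, and 13 of these rose and 10 fell in vehicle hearts. Another 12 were not well above background on any array of at least 1 group and entered the test through the groups where they were bright, so the counts describe the members and are no evidence of a shared rise.

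**Figure D1:**
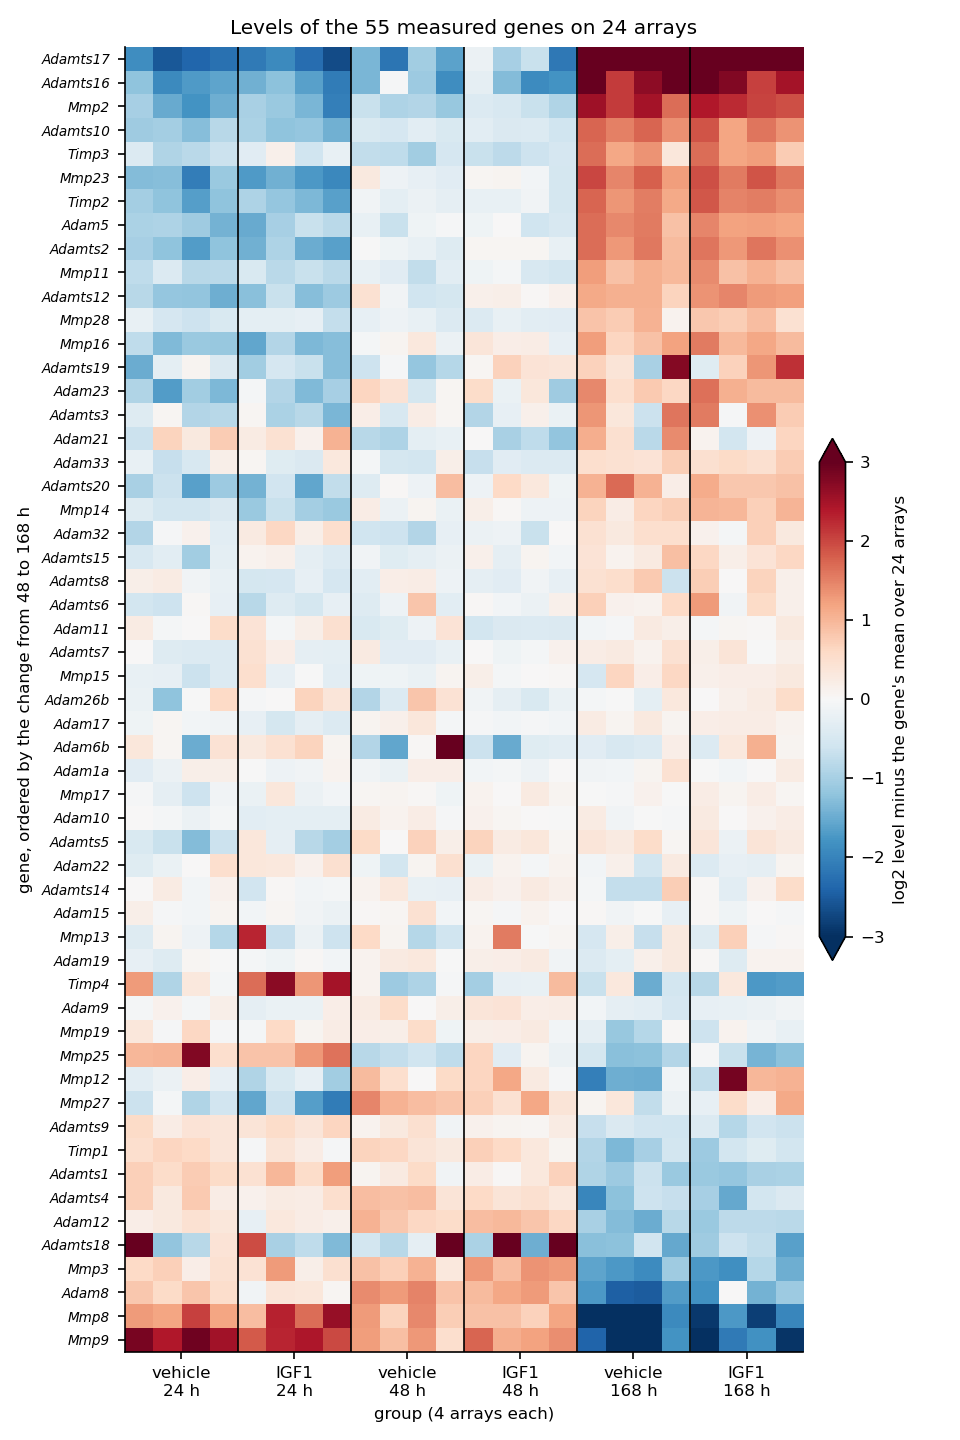
Heat map of the log2 level of each of the 55 measured genes (rows, ordered by the change from 48 to 168 h) on the 24 arrays (columns, 4 per group), minus the gene's mean over all arrays; colours end at 3 in either direction. Adamts17, Adamts16 and Mmp2 at the top are high on all 8 arrays at 168 h, and Mmp9 and Mmp8 at the bottom are low there.

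The gelatinases Mmp9 and Mmp2 moved in opposite directions. Mmp9, the gelatinase B of neutrophils and macrophages, stood in vehicle hearts at 2.17, 1.71, 2.24 and 1.84 at 24 h, at 0.58, 0.22, 0.61 and -0.19 at 48 h, and at -3.07, -5.86, -6.61 and -2.47 at 168 h, where 2 of the 4 arrays were not well above background. The 3 groups did not overlap. From 48 to 168 h the level fell 28.0-fold in vehicle hearts (log2 difference -4.81 ± 0.82, standard error of the fit; adjusted p 4.87e-05) and 25.8-fold in IGF1 hearts (7.76e-05), where 1 array at 168 h was not well above background. From 24 to 48 h its vehicle groups did not overlap either, but the difference of -1.69 ± 0.82 missed the threshold (adjusted p 0.144). That standard error is pooled over all groups, and the vehicle SDs were 0.25 at 24 h, 0.37 at 48 h and 2.03 at 168 h. The difference passed in 2 alternatives, normexp background correction and only the arrays compared. On the 3 slides shared by these groups it lay between -2.03 and -1.32. The folds from 48 to 168 h rest on arrays near background. The vehicle fold was 17.2 without replicate 3 and 44.7 without replicate 4 at 168 h, 18 with the slide as a block, 52.9 with array weights and 8.67 with normexp background correction, whose offset of 50 draws dim levels together. The IGF1 fold was 12.6 without replicate 1 at 168 h, 16.4 with the slide as a block and 10.1 with normexp. A second Mmp9 probe differed by -4.23 and -4.12 from 48 to 168 h.

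Mmp8, the neutrophil collagenase, was at -0.09, -0.70, 0.08 and -0.62 in vehicle hearts at 48 h and at -4.42, -4.88, -4.46 and -3.27 at 168 h, where 1 array was not well above background. All 168 h values lay below all 48 h values, a 15.2-fold fall (adjusted p 3.1e-08), and in IGF1 hearts the fall was 9.59-fold (4.16e-07). With the slide as a block the folds were 9.88 and 6.11, and with normexp 6.31 and 4.97. Mmp3, stromelysin-1, which cuts proteoglycans and activates other metalloproteases, went from 2.31, 2.15, 2.49 and 1.76 to -0.15, -0.28, -0.44 and 0.37, a 4.93-fold fall (adjusted p 1.1e-07), and fell 6.43-fold in IGF1 hearts (2.23e-08). Mmp13, collagenase-3, lay between -4.84 and -1.70 over the 24 arrays, was well above background on 20 of them, and passed no test. Mmp25, a membrane-anchored protease of leukocytes, was well above background only at 24 h, on 2 vehicle and 3 IGF1 arrays. Its level at 24 h was at least 1.56-fold that at 48 h in vehicle hearts and at least 1.62-fold in IGF1 hearts, taking the lowest signal well above background as the limit (adjusted p 0.000643 and 0.0246). The IGF1 call was lost without replicate 3 or 4 at 24 h or replicate 2 or 4 at 48 h (adjusted p 0.0538 to 0.0777). With normexp the folds were 1.43 and 1.34, under those bounds.

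Mmp2, gelatinase A, took the opposite course. Its levels in vehicle hearts were 0.82, 0.32, 0.03 and 0.36 at 24 h, 1.16, 0.90, 0.94 and 0.68 at 48 h, and 4.37, 3.93, 4.31 and 3.51 at 168 h. The 168 h arrays stood apart from all others, 8.65-fold above 48 h in vehicle (log2 difference 3.11 ± 0.22, adjusted p 1.2e-09) and 6.80-fold in IGF1 hearts (6.16e-09). Mmp14, the membrane enzyme that activates pro-MMP2, rose at each step in both arms: 1.38-fold and then 1.51-fold in vehicle hearts (adjusted p 0.012 and 0.000488), and 1.95-fold at both steps in IGF1 hearts (8.22e-06 and 2.88e-06). Mmp11, stromelysin-3, rose 2.71-fold from 48 to 168 h in vehicle and 2.58-fold in IGF1 hearts. Mmp23 rose 2.52-fold and then 3.33-fold in vehicle hearts, and Mmp16, a membrane-type protease, 2.18-fold (1.33-fold with normexp) and then 1.94-fold. Mmp19 fell 1.69-fold from 48 to 168 h in vehicle hearts (adjusted p 0.00753), with 1 array at 168 h inside the range at 48 h, and the 1.27-fold difference in IGF1 hearts missed the threshold (0.209).

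Mmp12, the elastase of macrophages, was at -1.90, -1.74, -1.37 and -1.81 in vehicle hearts at 24 h, at -0.62, -1.06, -1.56 and -1.0 at 48 h, and at -3.61, -3.03, -3.06 and -1.66 at 168 h. It fell 3.44-fold from 48 to 168 h (adjusted p 0.0057), and in IGF1 hearts the difference over that interval was 0.53 (0.406). Mmp27, also in the cluster, is a protease of little-known function. It rose 3.05-fold from 24 to 48 h in vehicle hearts (adjusted p 0.000986), where 1 of 4 arrays was well above background at 24 h. In IGF1 hearts it rose at least 2.71-fold (2.11e-05). With normexp these rises were 1.55-fold and 1.48-fold. It then fell 2.28-fold in vehicle hearts (0.00278). With the slide as a block the falls of Mmp12, Mmp27 and Mmp19 in vehicle hearts no longer passed (adjusted p 0.129, 0.104 and 0.186).

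**Figure D2:**
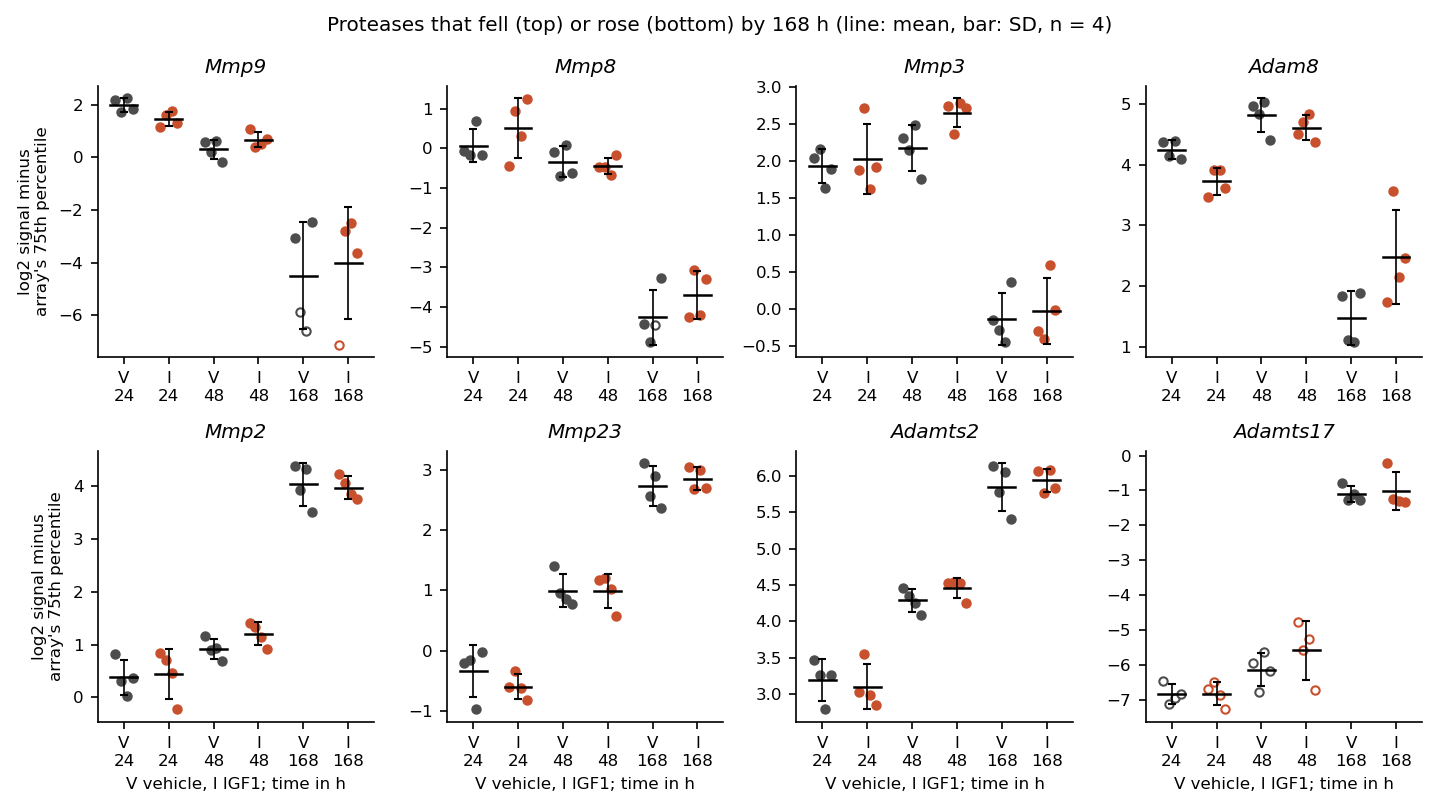
Level of 8 proteases on every array (vertical axis: log2 signal minus the array's 75th percentile; V vehicle, I IGF1, time in h; line and bar: mean and SD of 4 arrays; open points: not well above background). The upper row (Mmp9, Mmp8, Mmp3, Adam8) is lowest at 168 h and the lower row (Mmp2, Mmp23, Adamts2, Adamts17) highest, in both arms.

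Among the secreted ADAMTS proteases, 9 of 18 measured rose and 3 fell from 48 to 168 h in each arm. Of all genes, 25.8% rose and 27.6% fell with vehicle, against 23.8% and 25.4% with IGF1. Adamts16 and Adamts17, counted as rising in both arms, had no array well above background at 48 h. Within the arm where each was counted, the same held for Adamts19 (vehicle) and Adamts3 (IGF1). Such genes entered the test through groups where they were bright, so the count is no evidence of a shared rise. Adamts2, the main procollagen N-proteinase, was at 3.47, 3.26, 2.79 and 3.26 in vehicle hearts at 24 h, 4.45, 4.35, 4.25 and 4.09 at 48 h, and 6.14, 5.78, 6.06 and 5.41 at 168 h. The 3 groups did not overlap, and the steps were 2.13-fold (adjusted p 0.000148) and 2.95-fold (1.79e-07). Adamts10, which acts on fibrillin microfibrils, rose 1.53-fold and then 4.08-fold, and Adamts12, which can cut cartilage oligomeric matrix protein, 1.95-fold and then 2.26-fold.

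Adamts17, a relative of Adamts10, was not well above background on any of the 16 arrays at 24 and 48 h. It was at -0.78, -1.26, -1.11 and -1.28 in vehicle and at -0.22, -1.24, -1.32 and -1.32 in IGF1 hearts at 168 h. The 168 h level was at least 11.9-fold that at 48 h in vehicle hearts and at least 14.9-fold in IGF1 hearts. Adamts16 showed the same pattern of detection, with at least 5.33-fold and at least 5.76-fold. These bounds hold for the processed signal used here; with normexp the folds were 4.56 and 5.29 for Adamts17 and 2.63 and 2.69 for Adamts16. In IGF1 hearts Adamts17 also passed the test from 24 to 48 h, where neither group had an array well above background, so no fold is given.

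Adamts4, Adamts1 and Adamts9, which can cut proteoglycans, fell. Adamts4 was at 3.92, 3.88, 3.93 and 3.40 at 48 h and at 1.04, 1.77, 2.37 and 2.32 at 168 h in vehicle hearts, with no overlap, a 3.75-fold fall (adjusted p 2.2e-06). Adamts1 fell 2.21-fold and Adamts9 1.70-fold over that interval (adjusted p 9.8e-06 and 1.26e-05), and in IGF1 hearts these 3 genes fell 2.51-fold, 2.57-fold and 1.68-fold. Adamts5, the neighbour of Adamts1 on chromosome 16 and also an aggrecan- and versican-cutting enzyme, rose from 24 to 48 h, 2.18-fold in vehicle and 1.71-fold in IGF1 hearts (adjusted p 0.00257 and 0.0176), and differed by -0.05 and -0.11 from 48 to 168 h. The IGF1 call was lost without replicate 3 or 4 at 24 h or replicate 1 at 48 h (adjusted p 0.0631 to 0.0767). A second Adamts5 probe differed by 0.67 and 0.24 over the later interval, so the probes disagree in sign there. Adamts15 rose 1.58-fold and 1.40-fold from 48 to 168 h (adjusted p 0.00377 and 0.0278), and the IGF1 call was lost without replicate 2 or 4 at 48 h or replicate 1 or 4 at 168 h (adjusted p 0.0567 to 0.0914) and with the slide as a block (0.148). Adamts3, another enzyme that can trim procollagens, was well above background on 4 arrays, all at 168 h. Adamts20, known from pigment cell development, was 1.86-fold and 1.68-fold higher at 168 than at 48 h (adjusted p 0.0184 and 0.0479), with 1 array of each 48 h group well above background, and its calls were not stable. The vehicle call was lost in 7 of 18 alternatives, without replicate 1 or 3 at 48 h or replicate 2 at 168 h among them (adjusted p 0.052 to 0.0833), and with the slide as a block (0.193) and normexp (0.712). The IGF1 call was lost in 12 of 18, among them the authors' deposited value table (0.0525), the slide as a block (0.52) and 7 of the 8 fits without 1 array (0.0576 to 0.122).

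Of the membrane-bound ADAMs, Adam8 and Adam12 fell in both arms from 48 to 168 h. Adam8, a protease of leukocytes, was at 4.38, 4.14, 4.39 and 4.10 in vehicle hearts at 24 h, 4.97, 4.84, 5.05 and 4.42 at 48 h, and 1.83, 1.11, 1.07 and 1.88 at 168 h. The fall from 48 to 168 h was 10.2-fold in vehicle (adjusted p 7.83e-09) and 4.39-fold in IGF1 hearts (2.54e-06), with no overlap in either arm. Adam12, a protease known from regenerating muscle and fibrosis, rose from 24 to 48 h, 1.35-fold and 1.65-fold (adjusted p 0.0368 and 0.000682), and then fell 3.75-fold and 3.27-fold (3.26e-09 and 1.56e-08). Its early vehicle rise was lost without any 1 of the 4 arrays at 24 h, or replicate 1 or 2 at 48 h (adjusted p 0.0507 to 0.13), and with quantile normalization, the slide as a block, dim probes kept or the mean of probes (0.0629 to 0.269). A second Adam12 probe gave 0.12 for that rise, against 0.43. The later vehicle fall was 2.49-fold with normexp. From 24 to 48 h Adam8 rose 1.85-fold in IGF1 hearts (adjusted p 0.0161, or 0.0788 with the slide as a block), and in vehicle hearts the groups did not overlap but the 1.48-fold difference missed the threshold (0.147).

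The broad sheddases moved little. Adam10, which releases Notch and many other surface proteins, lay between 1.71 and 2.30 over all 24 arrays and rose only from 24 to 48 h in IGF1 hearts, 1.26-fold (adjusted p 0.00236, or 0.0876 with the mean of its probes). Adam17, which releases TNF and ligands of the EGF receptor, lay between 0.82 and 1.68 and rose 1.23-fold and then 1.19-fold in IGF1 hearts (adjusted p 0.00629 and 0.0145, the later one 0.21 with the mean of its probes). Adam15 and Adam19 passed none of the 9 tests, with Adam15 between 5.23 and 5.95 and Adam19 between 1.86 and 2.58. Adam32 and Adam5, known from testis, lie beside Adam9 on chromosome 8. Adam5 rose 3.13-fold and 2.96-fold from 48 to 168 h (adjusted p 6.13e-07 and 1.49e-06), with 1 vehicle and 3 IGF1 arrays well above background at 48 h, or 1.54-fold and 1.53-fold with normexp, and Adam9, a broadly expressed sheddase, fell 1.45-fold and 1.41-fold (0.000538 and 0.0014). Adam11 and Adam23, which lack protease activity and are known from nerve cells, were 1.45-fold and 2.38-fold higher at 168 than at 48 h in IGF1 hearts (adjusted p 0.00931 and 0.00382, or 0.35 and 0.154 with the slide as a block). For Adam23 normexp gave 1.31-fold.

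The 4 inhibitors followed 3 courses. Timp1, which is induced by inflammatory cytokines, was at 6.66, 6.80, 6.74 and 6.52 in vehicle hearts at 24 h, 6.81, 6.76, 6.53 and 6.45 at 48 h, and 5.27, 4.81, 5.17 and 5.60 at 168 h. Levels at 24 and 48 h overlapped, and the fall to 168 h was 2.69-fold (adjusted p 7.46e-07) in vehicle and 2.10-fold (3.01e-05) in IGF1 hearts. Timp2, which takes part in pro-MMP2 activation together with MMP14, was at 4.37, 4.18, 3.73 and 4.17, then at 5.27, 5.08, 5.21 and 5.10, then at 7.13, 6.71, 6.93 and 6.51. Its 3 vehicle groups did not overlap, with steps of 2.08-fold (adjusted p 0.000126) and 3.15-fold (4.46e-08). In IGF1 hearts the steps were 2.0-fold and 3.58-fold, and a second Timp2 probe differed by 0.84 and 1.19 over the later step in vehicle and IGF1 hearts, against 1.65 and 1.84 on the probe used.

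Timp3, which stays bound to the matrix and also inhibits ADAM17 and several ADAMTS proteases, was at 2.92, 2.88, 2.61 and 3.14 at 48 h and at 5.33, 4.82, 5.0 and 4.0 at 168 h in vehicle hearts. It rose 3.73-fold in vehicle and 3.64-fold in IGF1 hearts (adjusted p 6.42e-07 and 1.1e-06), with no overlap. Timp4, an inhibitor abundant in normal heart, did not pass the test from 48 to 168 h in either arm (differences of -0.11 and -0.84, adjusted p 0.885 and 0.197). From 24 to 48 h it fell 4.54-fold in IGF1 hearts (adjusted p 0.00304), and in vehicle hearts the difference was -0.64 (0.412).

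**Figure D3:**
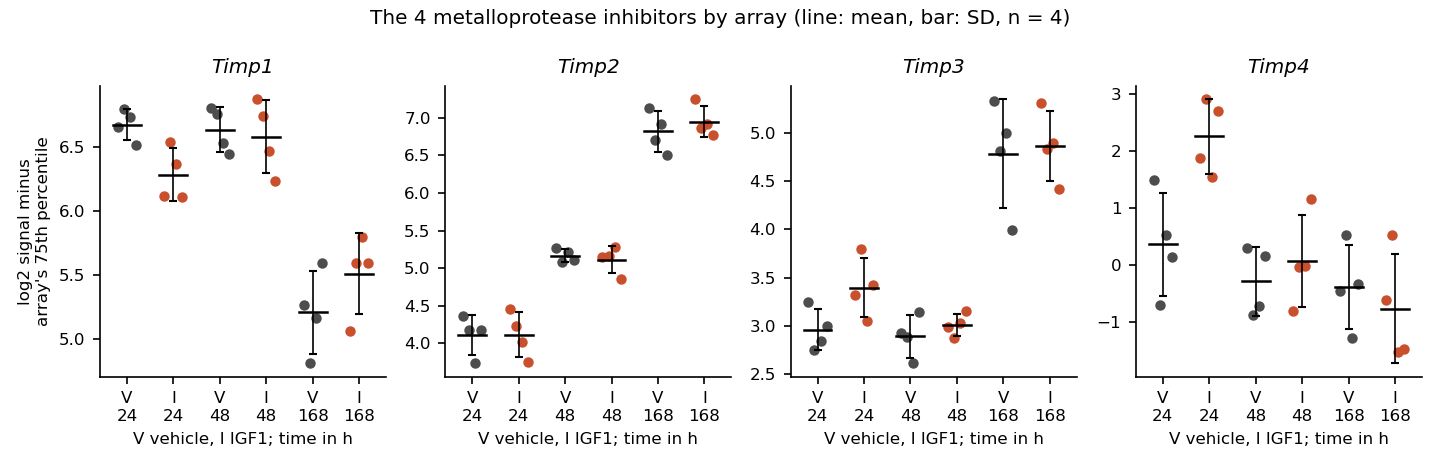
Level of the 4 Timp genes on every array (vertical axis: log2 signal minus the array's 75th percentile; V vehicle, I IGF1, time in h; line and bar: mean and SD of 4 arrays). Timp1 is lowest at 168 h, Timp2 and Timp3 are highest there, and Timp4 is highest in the IGF1 hearts at 24 h, between 1.54 and 2.91.

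The earlier step, from 24 to 48 h, moved fewer members. In vehicle hearts 13 of 55 rose (11.6% of all genes did) and 1, Mmp25, fell (11.1%). In IGF1 hearts 19 rose (17.2% of all genes) and 8 fell (19.3%). Of the rising members 12 rose in both arms, 92.3% of the vehicle list and 63.2% of the IGF1 list. Of the 37 members well above background on all 24 arrays, 8 rose in vehicle hearts, and 14 rose and 4 fell in IGF1 hearts. Adam23, counted as rising in vehicle hearts, had no array well above background at either time. With normexp the vehicle rises of Adam23, Adam5 and Adamts20 were 1.11-fold, 1.12-fold and 1.13-fold and no longer passed. The counts are therefore no evidence of a shared rise. Among the members called only in IGF1 hearts, Adam8 alone passed the test of the treatment difference across the 3 times, given below. That test does not single out this step, so none of these members is shown to differ between the arms over it. The IGF1 calls of Mmp3 (1.54-fold up, adjusted p 0.0444) and Mmp8 (1.95-fold down, 0.0439) had overlapping groups. Both were lost in 6 of the 8 fits that left out 1 array of these groups (adjusted p up to 0.142 and 0.155). Over the same step, 7 of 10 fibroblast markers rose in vehicle and 8 in IGF1 hearts, with a summed level of 7.13 to 7.72 over the vehicle arrays and 7.11 to 7.63 over the IGF1 arrays at 24 h, and of 8.69 to 9.0 and 8.47 to 8.92 at 48 h. Of 10 monocyte and macrophage markers 4 and 6 rose, of 10 endothelial markers 2 and 7 fell, and of 10 neutrophil markers 2 and 3 fell. Their part was not tested.

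Markers of other cells moved over the same intervals. From 48 to 168 h, 9 of 10 fibroblast markers rose in each arm, and their summed level went from 8.69 to 9.0 over the vehicle arrays at 48 h to 9.85 to 10.03 at 168 h. Of 10 neutrophil markers, 7 fell in vehicle and 5 in IGF1 hearts, and their summed level went from 7.10 to 7.80 to 5.81 to 6.5 in vehicle hearts. Of 6 epicardial markers, 5 rose in vehicle and 4 in IGF1 hearts, but most were near background. Only 1 in vehicle and 2 in IGF1 hearts were well above background on all arrays at 48 h, and 3 and 4 at 168 h. Monocyte and macrophage markers were mixed, with 1 up and 6 down of 10 in vehicle hearts and 3 up and 7 down with IGF1. All 10 fibroblast markers were well above background on all arrays, and 5 of 10 neutrophil markers on all vehicle arrays at 168 h. In vehicle hearts 5 of 7 dendritic cell markers rose and 1 fell, and 4 of 7 T and NK cell markers rose. So did 4 of 10 endothelial, 4 of 10 cardiomyocyte and 2 of 10 smooth muscle markers. Of 5 B cell and 5 red cell markers 3 each fell, and 0 of 3 adipocyte markers changed. With IGF1 7 of 7 T and NK cell, 5 of 7 dendritic cell and 4 of 10 cardiomyocyte markers rose. Of the endothelial and smooth muscle markers 2 and 4 rose. For B cells 1 marker rose and 2 fell, and no red cell or adipocyte marker changed. Over all genes 25.8% rose and 27.6% fell with vehicle, against 23.8% and 25.4% with IGF1. The part of any of these cells in the course of the proteases was not tested.

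The slide is a further limit on the time comparisons. The arrays at 48 and 168 h shared only 1 slide in vehicle hearts, with 1 array of each, and none in IGF1 hearts. On that slide the vehicle difference was 2.82 for Mmp2, 1.41 for Timp2, -0.85 for Timp1, -2.28 for Mmp9 and -2.54 for Adam8. Of the 34 members called over this step, 32 had the sign of the call on that slide, while Adamts20 (-0.72) and Mmp19 (0.18) had the opposite one. With the slide as a block, 19 members rose and 11 fell in vehicle hearts, and 18 rose and 11 fell in IGF1 hearts. In that fit 19.3% of all genes rose and 24% fell among vehicle samples, against 15.4% and 19.9% among IGF1 samples.

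Few members passed the tests between treatments at single times, and all that did passed at 24 h. At that time 2 members were higher than with vehicle, Timp4 and Adam32, where 8.25% of all genes were higher, and 3 were lower, Mmp14, Adam17 and Mmp27, where 8.08% of all genes were lower. These shares, 3.64% and 5.45% of the 55, lie below the background. In 7 members the groups did not overlap, 2 higher and 5 lower, where this held for 9.32% and 9.10% of all genes.

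Timp4 was at 1.49, -0.70, 0.52 and 0.15 in vehicle and at 1.88, 2.91, 1.54 and 2.70 in IGF1 hearts at 24 h. Every IGF1 array lay above every vehicle array, and the mean level was 3.72-fold higher (log2 difference 1.89 ± 0.53, adjusted p 0.0203). A second Timp4 probe gave 2.08. Each of the 4 slides held 1 array of each treatment at 24 h, and within them the difference was 0.39, 3.61, 1.02 and 2.56. The call was lost without replicate 2 of the vehicle group (1.54, adjusted p 0.0819) or of the IGF1 group (1.68, 0.0555), with array weights (0.0543), and with only the arrays compared in the fit (0.0566). At 48 and 168 h the difference was 0.36 and -0.38, with overlapping groups.

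Other cell markers moved in the same comparison, where 8.25% of all genes were higher and 8.08% lower. Of 10 cardiomyocyte markers, 4 were higher with IGF1 at 24 h, and their summed level was 10.41 to 10.83 in vehicle and 10.70 to 10.89 in IGF1 hearts. Of the 3 measured adipocyte markers 1, Fabp4, was higher, and their summed level was 5.93 to 6.45 in vehicle and 6.42 to 7.26 in IGF1 hearts, while the defining adipocyte markers Adipoq and Plin1 were not measured above background. The part of either in the Timp4 level was not tested.

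Mmp14 was at 0.03, -0.13, -0.14 and -0.02 in vehicle and at -0.70, -0.25, -0.61 and -0.70 in IGF1 hearts at 24 h. The groups did not overlap, and the level was 1.41-fold lower with IGF1 (adjusted p 0.0118), lower on each of the 4 slides, by 0.12 to 0.73. At 168 h the order was turned, with 1.08, 0.65, 1.05 and 1.16 in vehicle and 1.45, 1.42, 1.14 and 1.43 in IGF1 hearts, a difference of 0.37 ± 0.13 that did not pass the test at that time alone (adjusted p 0.883). The change of the treatment difference across the 3 times did pass (F test of the interaction, adjusted p 0.0193).

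Adam17 was at 1.21, 1.40, 1.27 and 1.23 in vehicle and at 1.11, 0.82, 1.07 and 0.94 in IGF1 hearts at 24 h, without overlap and 1.22-fold lower (adjusted p 0.0201). A second Adam17 probe gave -0.51. Without replicate 2 of the vehicle or of the IGF1 group the adjusted p was 0.0753 or 0.0628, and it was 0.0611 with another background correction and 0.0978 with only the arrays compared. Adam10 showed a smaller difference of -0.23 that missed the threshold (adjusted p 0.0519) and was lower on each of the 4 slides, by 0.12 to 0.33. It passed with the replicate block (0.0291), with array weights (0.0406), with a stricter filter (0.0497) and without replicate 3 of the vehicle group (0.0496). Adam32 was 1.59-fold higher (adjusted p 0.0265), and the call was lost in 7 of 18 alternatives, 4 of which left out 1 array. Mmp27 was not well above background on any IGF1 array at 24 h and on 1 vehicle array, so its vehicle level is given as at least 1.16-fold higher (adjusted p 0.0411), and the call was lost in 10 of 18 alternatives, 6 of which left out 1 array. Timp1 was 1.31-fold lower with IGF1 but did not pass (adjusted p 0.122), nor did Timp3, 1.35-fold higher (0.194).

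Leukocyte markers moved at 24 h as well: 5 of 7 measured T and NK cell markers and 3 of 5 B cell markers were lower with IGF1. Over all genes 8.25% were higher and 8.08% lower. Of 10 monocyte and macrophage markers, 2 were higher and 5 lower with IGF1, and their summed level was 6.78 to 6.96 in vehicle and 6.71 to 7.06 in IGF1 hearts. Of 7 measured dendritic cell markers 6 were lower, with a summed level of 5.15 to 5.64 in vehicle and 3.72 to 4.47 in IGF1 hearts, and none of 10 neutrophil markers changed. Their part in the Mmp14 and Adam17 levels was not tested.

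At 48 h no member passed, where 0% of all genes were higher and 0.0126% lower (limma, adjusted p). At an unadjusted p under 0.05 there were 2 members, Adam17 (1.14-fold lower) and Mmp25 (not well above background on any array of either group). At 168 h no member passed, where 0% of all genes were higher and 0% lower, and 3 members had an unadjusted p under 0.05, Mmp12, Adam8 and Mmp14, each higher with IGF1. The mean difference over the 3 times passed in no member either, where 0.0504% of all genes were higher and 0.416% lower, and 5 members had an unadjusted p under 0.05, with Adam17 the smallest (difference -0.15 ± 0.05, adjusted p 0.16).

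Mmp12 had the smallest p-value of the members at 168 h. The vehicle arrays are given above, between -3.61 and -1.66, and the IGF1 arrays were at -2.32, 1.29, -0.56 and -0.52. One IGF1 array, replicate 1, lay inside the vehicle range, and the mean difference of 2.31 ± 0.51 corresponds to 4.98-fold (adjusted p 0.381). Leaving out replicate 1 of the IGF1 group gave 7.52-fold (0.01), and leaving out replicate 2 gave 3.27-fold (1). The standard error is pooled over all groups, and the SDs at 168 h were 0.83 in vehicle and 1.47 in IGF1 hearts. The difference was 2.71 on the slide with 3 arrays of each group and 1.14 on the slide with 1 of each, and other Mmp12 probes gave 2.46 and 2.96. At 24 h the difference was -0.53 and at 48 h 0.00. The other probes gave -0.495 and 0.35 at 24 h, so the probes disagree in sign there. With array weights the adjusted p at 168 h was 0.0431, and with only the arrays compared the difference did not pass.

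The treatment difference varied across the 3 times in 3 of 55 members, Mmp14, Mmp12 (adjusted p 0.0393) and Adam8 (0.0419), a share of 5.45% where 5.65% of all genes passed. Adam8 was lower with IGF1 at 24 h, at 3.47, 3.92, 3.91 and 3.62 against 4.38, 4.14, 4.39 and 4.10, and higher at 168 h, at 1.73, 3.56, 2.15 and 2.47 against 1.83, 1.11, 1.07 and 1.88. The groups did not overlap at 24 h and overlapped at 168 h, and neither difference passed on its own (-0.52 and 1.0, adjusted p 0.205 and 0.66). Of 24 fits that each left out 1 array, 15 lost the Mmp12 call and 16 the Adam8 call, while Mmp14 kept its call in all of them. Of 10 monocyte and macrophage markers 4 differed across the times as well, and their summed level at 168 h was 6.87 to 7.14 in vehicle and 6.95 to 7.39 in IGF1 hearts. Their part was not tested.

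**Figure D4:**
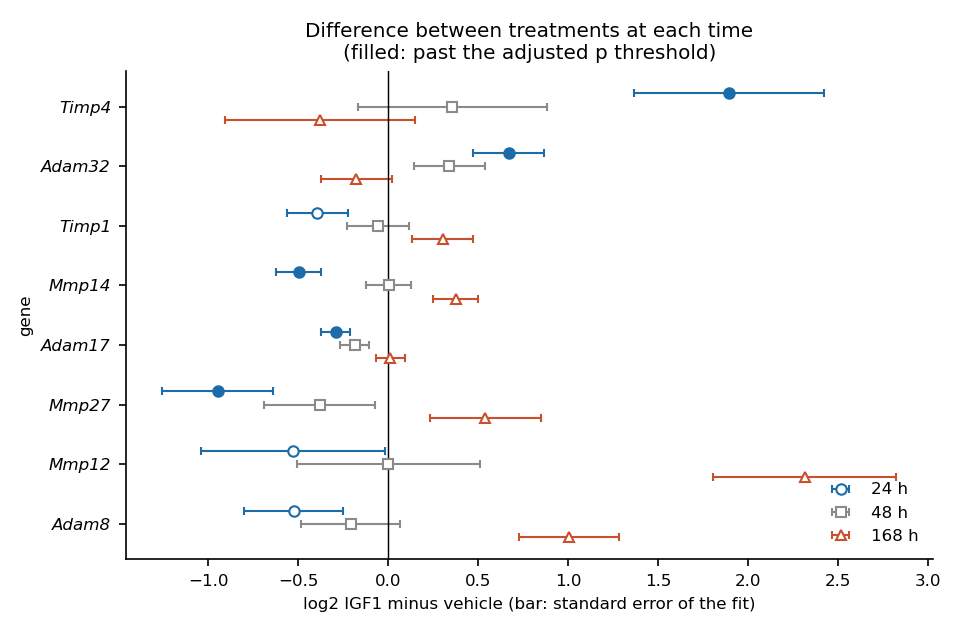
Log2 difference of IGF1 minus vehicle for 8 genes at 24, 48 and 168 h (horizontal axis; bar: standard error of the fit; filled: past the adjusted p threshold). Timp4 stands at 1.89 at 24 h, Mmp14 goes from -0.50 to 0.37, and Mmp12 stands at 2.31 at 168 h without passing the test.

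Genes for proteins on which these enzymes act, and for those that act on them, were counted over the same intervals, at the RNA level only. From 48 to 168 h, 25.8% of all genes rose and 27.6% fell with vehicle, against 23.8% and 25.4% with IGF1. From 24 to 48 h, 11.6% rose and 11.1% fell with vehicle, against 17.2% and 19.3% with IGF1. Whether any list departed from these shares was not tested. Of 20 measured matrix substrates, 16 rose and 2 fell from 48 to 168 h in vehicle hearts, and 15 rose and 2 fell in IGF1 hearts. This list shares Col1a1, Col1a2, Col3a1 and Dcn with the fibroblast markers and Vwf with the endothelial markers, so these counts are not separate observations. Their median change was 0.93 and 1.08 on the log2 scale, against 0.02 and 0.03 over all genes. Comp, cartilage oligomeric matrix protein, rose 58.9-fold and 53.0-fold, and Eln, elastin, 38.7-fold and 27.5-fold. From 24 to 48 h, 10 rose and 1 fell in vehicle hearts and 12 rose and 1 fell in IGF1 hearts, among them the collagens Col1a1 (3.58-fold and 4.48-fold) and Col5a1 (2.73-fold and 3.33-fold). With IGF1 at 24 h only Fn1, fibronectin, was lower (1.74-fold, adjusted p 0.0025) and Lama2, a laminin chain, higher (1.38-fold, 0.0364).

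Of 16 measured protease activators and other inhibitors, 7 rose and 5 fell from 48 to 168 h in vehicle hearts, and 7 rose and 4 fell in IGF1 hearts. Reck, a membrane-anchored metalloprotease inhibitor, rose 3.29-fold and 2.83-fold, and Serpine2, an inhibitor of serine proteases, 4.47-fold and 5.66-fold. Plaur, the urokinase receptor, fell 6.85-fold and 3.65-fold, and Lcn2, a neutrophil protein that binds MMP9, 13.6-fold and 29.1-fold. With IGF1 at 24 h 2 were higher, Bsg, an inducer of metalloproteases (1.45-fold, adjusted p 0.0128), and Lcn2 (2.78-fold, 0.0177). From 24 to 48 h, 5 rose and 1 fell in vehicle hearts and 6 rose and 4 fell in IGF1 hearts. Bmp1 and Pcolce, which act with procollagen trimming, rose 1.67-fold and 1.80-fold in vehicle hearts.

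Of 8 measured partners of ADAM proteases, 3 rose and 3 fell from 48 to 168 h in vehicle hearts and 4 rose and 2 fell in IGF1 hearts. Rhbdf2 and Frmd8, which carry ADAM17 to the cell surface and hold it there, fell 1.61-fold and 1.42-fold in vehicle hearts. Frmd8 was 1.28-fold lower with IGF1 at 24 h (adjusted p 0.00734), and its treatment difference varied across the times (0.0318). Of 18 measured ligands and receptors shed by ADAMs, 5 rose and 8 fell from 48 to 168 h in vehicle hearts and 5 rose and 6 fell in IGF1 hearts, with Cxcl16 (2.55-fold) and Nrg1 (3.37-fold) up and Cd44 (2.62-fold) down in vehicle hearts. With IGF1 at 24 h Cxcl16 and Tnfrsf1b, a TNF receptor, were lower (1.37-fold and 1.48-fold, adjusted p 0.029 and 0.0347).

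The ADAMTS-like proteins resemble ADAMTS proteases without the protease part, and 5 of their 7 genes rose from 48 to 168 h in each arm and none fell. Of all genes, 25.8% rose in vehicle and 23.8% in IGF1 hearts. At 48 h 5 of the 7 were well above background on all arrays in each arm, and at 168 h all 7. The count is therefore no evidence of a shared rise. Adamtsl2, a microfibril protein, rose 4.64-fold from 24 to 48 h and 12.4-fold from 48 to 168 h in vehicle hearts. It was also 2.02-fold higher with IGF1 at 24 h (adjusted p 0.0472), as was Adamtsl4 (1.40-fold, 0.0264).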

How the data were processed

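Per the file headers, the authors' scanner software (Agilent's Feature Extraction, version 12.0.3.2) made each spot's processed Cy3 intensity by taking off the array's own background, with no scaling across arrays. The authors also deposited a log2 value for 33957 probes, used as an alternative. With each probe's mean removed it differed from the values computed here with an SD of at most 2.69e-05 within an array. That SD leaves out a constant shift of a whole array. The Adam10 difference at 24 h, for example, was -0.2172 with the deposited values and -0.2277 here. The scale and direction of the deposited values are thus known, and they are centred per probe, with array medians between -0.0557 and 0.0527. Here the log2 of the intensity minus each array's 75th percentile was taken. Control spots and spots marked as outliers were left out, spots of a probe were averaged, and 59.65% of 56605 probes were paired with a single symbol through RefSeq accessions. For each gene the brightest probe among those well above background on at least 4 of 24 arrays was used. Across arrays 52.78% to 62.92% of spots were well above background and none were saturated, and the number of arrays limits the precision.

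The 6 groups were fitted together for all 15875 genes with limma 3.58.1 (lmFit and eBayes, R 4.3.3; package data.table, version 1.17.8), with Benjamini-Hochberg adjustment over all genes in each of 9 comparisons and a threshold of 0.05. The script was tested on simulated data. A gene not well above background on any array of a group is given as a bound: the bright group's mean over, per array of the dim group, the higher of the lowest signal well above background and the probe's own. Figures were drawn with matplotlib 3.10.9 in Python 3.11.15.

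The members, gene lists and tests were chosen with earlier results of these data known. Named were per comparison up to 12 members with the smallest p that passed, or the 3 smallest p where fewer than 3 passed, the members of highest and lowest mean signal, a set of 25 well-known members, and up to 4 genes per list and comparison. Adam9 was named outside that rule, after its values were seen. Markers of 12 cell types were counted. Alternatives were the background correction, the normalization, the deposited value table, the filter, the probe rule, blocks for slide and replicate number, array weights, a fit of only the arrays compared and leaving out each array.

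Replicate numbers are shared across groups. The deviations of same-numbered arrays from their group means correlated between -0.05 and 0.13 at 24 h, between -0.01 and 0.11 at 48 h and between 0.19 and 0.50 at 168 h, so the numbers do not pair the samples throughout.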

Additional observations from a re-analysis of the deposited data

Results flagged for a closer look

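In 39 named members and 6 groups each, 234 groups of 4 arrays were looked at for an array far from the other 3, and 11 were found. Chance alone marks about 1 in 20 such groups. In IGF1 hearts at 168 h, replicate 1 was low for Adam12 (-3.38, the others between -3.09 and -3.05) and high for Adam23 (-4.11, the others between -4.81 and -4.7) and Adamts17 (-0.22, the others between -1.32 and -1.24), and replicate 3 was low for Mmp14 (1.14, the others between 1.42 and 1.45). In IGF1 hearts at 48 h, replicate 2 was low for Mmp3 (2.37, the others between 2.72 and 2.79) and high for Mmp13 (-2.42, the others between -3.98 and -3.86), and replicate 4 was low for Adamts2 (4.25, the others between 4.53 and 4.54). In vehicle hearts, replicate 2 at 24 h was high for Mmp11 (-0.18, the others between -0.6 and -0.55), and replicate 3 at 24 h was high for Mmp8 (0.69, the others between -0.17 and -0.07). Replicate 4 was low for Adamts4 at 48 h (3.4, the others between 3.88 and 3.93) and for Adamts12 at 168 h (-0.06, the others between 0.34 and 0.4).

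The IGF1 difference varied between the 3 times for Mmp14 (adjusted p 0.0193), Mmp12 (0.0393) and Adam8 (0.0419) by the F test of the interaction in limma. All 3 genes were lower with IGF1 at 24 h and higher at 168 h on the probe used, while another Mmp12 probe was higher at 24 h (0.35). Of these, Mmp14 at 24 h was the only single-time difference past the threshold.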

How the results depend on the processing

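Of 116 member calls, recomputed in 2122 alternative values, 1930 remained calls, 192 did not, and 0 of those with a direction changed it. The 3 interaction calls have no direction. Each alternative refits the same arrays for genes already called, so the lack of reversals is no independent support. The count of members whose IGF1 difference varied between times went from 3 to 1 with the mean of probes and also when dim probes were kept, to 5 with array weights, and to between 1 and 4 without single arrays. At 24 h the count of 5 went to 2 with normexp background correction, to 1 (Mmp14) with only the arrays compared, and to between 2 and 6 without single arrays. At 168 h the count of 0 went to 1 (Mmp12) with array weights, and to between 0 and 1 without single arrays. Why these counts moved was not tested. Without single arrays the counts were 13 to 17 and 31 to 35 for the earlier and later step in vehicle hearts, 20 to 28 and 29 to 33 in IGF1 hearts, and 0 at 48 h and over the mean of times. Over all genes, the 2591 calls at 24 h went to 872 with only the arrays compared, 1321 without vehicle replicate 2 and 1204 without IGF1 replicate 1. The 897 interaction calls went to 366 at the lowest without single arrays, 403 with no filter, 1527 with the slide as a block and 1579 with array weights. The 74 calls on the mean of times went to 154 with the slide as a block, 40 of them higher against 8 of 74.

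With the replicate block the counts were 6 at 24 h, 0 at 48 h, 0 at 168 h, 0 for the mean, 2 for the interaction, 16 and 35 for the vehicle steps and 29 and 33 for the IGF1 steps. The numbers coincide with slides at 24 h and in part at 168 h. Replicate number alone is not taken as pairing. Adamts20, Adamts3, Adam23 and Mmp27 were near background.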

Other observations

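Several members had more than 1 probe, and 2 of those with disagreeing probes are given here as values. Adam11 differed by -0.32 from 24 to 48 h in vehicle hearts on the probe used and by 0.41 on its other probe. Adam12 differed by -1.91 from 48 to 168 h in vehicle hearts on the probe used and by -1.13 on another.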
